A study of Homo sapiens with 9 samples.

Results

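Distal regions are stretches of accessible chromatin that lay more than 50 kb from the body of every protein-coding gene. They were obtained by pooling the peaks of 4 ATAC-seq peak lists on chromosomes 1 to 22, merging peaks that shared at least 1 bp, and keeping the merged regions whose nearest protein-coding gene in the RefSeq table of GRCh38.p14 was over 50 kb away. This gave 15948 distal regions of 68449 regions in all, or 23.3%, and the other 52501 regions lay within 50 kb of a coding gene or inside one. ATAC-seq uses the transposase Tn5 to cut and tag open DNA, and a peak is an interval in which the authors' caller found such tags in excess.

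The cells were HEK293T, an established line from human embryonic kidney. The study set cells given a guide RNA without a target beside cells that had lost IGF2BP1, IGF2BP2 or IGF2BP3, members of a family of RNA-binding proteins that hold on to and stabilise messenger RNAs and are abundant in embryonic tissue and tumours. The control list stood for 2 libraries (batches 2 and 3), the IGF2BP1 knockout list for 3 libraries (batches 1, 2 and 3), and the IGF2BP2 and IGF2BP3 knockout lists for 2 libraries each (batches 2 and 3). Each knockout was a single-cell clone, obtained after transient transfection with plasmids that carried 3 guide RNAs and GFP, so the effect of a knockout and that of its clone cannot be told apart. Only 1 list was analysed per group, with 3 columns for chromosome, start and end. No spread between libraries could therefore be measured, no comparison could be made within a batch, no test was made, and the sequencing depth is unknown. All intervals below are 95% intervals (Wilson for a share, order statistics for a median) that cover counting error over regions only. Across chromosomes 1 to 22 the lists held 37535 peaks in the control, 48923 in the IGF2BP1 knockout, 57669 in the IGF2BP2 knockout and 41906 in the IGF2BP3 knockout, and a longer list holds more regions of any kind. Where 3 knockout values follow each other below, they are in the order IGF2BP1, IGF2BP2, IGF2BP3, and 4 values begin with the control. Of 7 marker genes of kidney development and the HEK293 lineage, 6, 6, 6 and 7 had a peak in the 4 lists in that order, against 1, 2, 1 and 1 of 12 markers of blood, liver, skin and vessel cells. The exceptions were SPI1 in all 4 lists and CD3E in the IGF2BP1 knockout list, each with a peak near a gene end.

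Open chromatin far from genes can mark enhancers, which raise the transcription of genes along the same chromosome, insulators bound by CTCF, or promoters of transcripts that do not encode protein, such as long non-coding RNAs (lncRNAs), microRNAs and transfer RNAs. Enhancers differ between cell types more than promoters of coding genes do. Genes that control development often lie beside long stretches without other coding genes, and such stretches can hold their enhancers.

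The sequences that can be shown are those of annotated non-coding genes whose starts lay in distal regions. Distal regions that cover the start of an lncRNA, taken as 250 bases before to 50 bases after the start in the RefSeq promoter table of GRCh38.p14, numbered 374, or 2.35% of all distal regions. The 5 promoters below lie under the distal regions with the broadest peaks among those found in all 4 lists at an lncRNA start, and are shown because no list lacked a peak there. The windows are, in order, chr13:50125492-50125791 (minus strand), chr6:28838974-28839273 (minus strand), chr2:109986730-109987029, chr1:120558435-120558734 and chr1:218164807-218165106 (plus strand). The last is the first of 2 start windows of its gene in that region. Capitals mark matches, on either strand, to the 11 short motifs spelled out after them.
DLEU2: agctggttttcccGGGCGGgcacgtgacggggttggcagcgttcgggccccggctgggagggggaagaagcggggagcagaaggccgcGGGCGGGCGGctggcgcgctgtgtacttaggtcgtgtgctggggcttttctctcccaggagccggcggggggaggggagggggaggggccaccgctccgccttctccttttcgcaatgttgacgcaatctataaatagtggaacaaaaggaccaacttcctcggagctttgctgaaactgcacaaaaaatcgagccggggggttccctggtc
LOC124901296: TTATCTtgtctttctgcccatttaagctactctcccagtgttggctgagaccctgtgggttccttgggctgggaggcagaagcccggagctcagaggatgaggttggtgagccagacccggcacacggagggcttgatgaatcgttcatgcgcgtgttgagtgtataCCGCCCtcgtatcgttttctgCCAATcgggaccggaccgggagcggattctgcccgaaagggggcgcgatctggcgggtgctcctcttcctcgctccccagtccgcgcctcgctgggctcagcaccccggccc
LINC01123: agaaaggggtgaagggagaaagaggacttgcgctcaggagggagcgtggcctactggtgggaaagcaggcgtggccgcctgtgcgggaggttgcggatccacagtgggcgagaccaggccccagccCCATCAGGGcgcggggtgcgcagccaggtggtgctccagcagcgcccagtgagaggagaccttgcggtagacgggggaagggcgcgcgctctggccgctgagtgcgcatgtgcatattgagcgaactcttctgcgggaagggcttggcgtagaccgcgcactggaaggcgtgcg
LOC107985524: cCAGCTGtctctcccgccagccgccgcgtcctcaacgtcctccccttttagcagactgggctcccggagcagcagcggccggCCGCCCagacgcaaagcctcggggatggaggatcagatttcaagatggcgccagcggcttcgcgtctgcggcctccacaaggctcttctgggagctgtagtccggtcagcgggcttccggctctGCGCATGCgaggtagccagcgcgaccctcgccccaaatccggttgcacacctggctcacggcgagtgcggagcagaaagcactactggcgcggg
LOC105372923: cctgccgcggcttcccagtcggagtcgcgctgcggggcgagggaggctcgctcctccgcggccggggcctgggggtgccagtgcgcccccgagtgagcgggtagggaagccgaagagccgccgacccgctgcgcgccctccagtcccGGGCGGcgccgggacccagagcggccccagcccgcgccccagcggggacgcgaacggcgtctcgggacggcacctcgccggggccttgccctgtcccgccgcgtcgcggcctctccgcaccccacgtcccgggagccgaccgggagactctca
The core of the site of the insulator protein CTCF was searched as CCANNAGGG. Motifs of factors common at promoters were those of the SP family (GGGCGG), which binds boxes rich in guanine and cytosine, of NFY (CCAAT), a box near many starts, of NRF1 (GCGCATGC), a regulator of mitochondrial genes, and of the ETS family (CCGGAAGT). Motifs of factors common at enhancers were those of AP-1 (TGANTCA), which responds to growth signals, of the TEAD proteins (GGAATG), which act in growth control, and of the factors that bind the GATA box (AGATAA). The remaining ones were those of TCF proteins (ATCAAAG), which act in Wnt signalling, of homeobox proteins (TAATTA), which pattern the embryo, and of proteins that bind the E-box (CAGCTG). In the DLEU2 window the capitals are 3 SP matches, of which 2 overlap. In LOC124901296 they are GATA, SP and NFY, in LINC01123 the CTCF core, in LOC107985524 E-box, SP and NRF1, and in LOC105372923 SP. A match says that these letters are present and is not a measured binding site.

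The region at the DLEU2 start, chr13:50123809-50126250, lies where the bodies of DLEU1 and DLEU2 overlap, in a stretch of chromosome 13 known for deletions in leukaemia. Its nearest coding gene was KCNRG, 102.9 kb away. Its peak was 2123 bp wide in the control list and 2442, 2328 and 2051 bp wide in the knockout lists. The peaks at LOC124901296 (chr6:28836973-28839502) were 2312, 2107, 2040 and 1987 bp wide in the same order, and the region also covers a transfer RNA gene, TRA-AGC2-1. At LINC01123 (chr2:109986468-109988423) the widths were 1956, 1922, 1929 and 1766 bp. At LOC107985524 (chr1:120557168-120559479) they were 2156, 2167, 1669 and 1892 bp, and at LOC105372923 (chr1:218164004-218165887) 1881, 1872, 1858 and 1556 bp. Width is the only measure of a peak in the lists, and at these starts every list held 1 broad peak, with the IGF2BP3 knockout narrowest in 4 of the 5 regions.

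Most lncRNA genes in distal territory had no peak at their start. The table gave 3943 lncRNA start windows more than 50 kb from a coding gene, and 436 of them, or 11.1% (95% interval 10.1 to 12.1%), met a distal region. Among lncRNA starts closer to coding genes 36.8% met a region of any kind, and among coding starts 65.6%. The median GC content was 51.3% in the 436 distal windows with a region and 43.0% in the 3507 without one, against 62.7% in windows of coding genes. Within the 436 it was 55.7% where all 4 lists held the region and 47.7% where fewer did. SP matches were found in 30.3% of windows with a region, 7.41% of windows without one and 45.04% of all promoter windows on these chromosomes. NRF1 matches were found in 5.05, 0.969 and 3.00% and CTCF core matches in 8.72, 4.56 and 6.46%, in the same order. AP-1 (14.9 and 13.0%, 7.67% of all windows) and TEAD (16.97 and 17.6%, 14.04%) differed little between windows with and without a region, and GATA matches were less frequent with a region (13.8%) than without (20.6%, 10.4% of all windows). With a region, without one and over all windows, the share was 33.5, 39.6 and 34.4% for NFY, 0.459, 0.884 and 4.19% for ETS, 2.52, 4.85 and 2.60% for TCF, 7.80, 10.8 and 4.91% for the homeobox and 19.5, 15.4 and 18.0% for the E-box. GC content differs between these sets and itself sets how often such letters occur, and its part in these shares was not tested.

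Of 200 microRNA hairpins over 50 kb from a coding gene, 12 overlapped a distal region. The mature sequences of 3 are printed, with the seed (bases 2 to 8, which pairs with target messages) in capitals, because they show a hairpin present in all lists beside one missing from a list. They were chosen after their values were seen, and each has a different seed.
hsa-miR-30a-5p: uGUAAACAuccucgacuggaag
hsa-miR-148a-3p: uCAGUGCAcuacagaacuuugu
hsa-miR-138-5p: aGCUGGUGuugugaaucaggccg
The hairpin of miR-30a lay in chr6:71403395-71405256, 94.3 kb from OGFRL1, and the peak there was 1686 bp wide in the control and 1682, 1000 and 1372 bp in the knockout lists. The hairpin of miR-148a lay in chr7:25949819-25952244, 200 kb from NFE2L3, with 895 bp in the control list and 2187, 1185 and 2335 bp in the knockout lists. The hairpin of MIR138-1 lay in chr3:44113904-44114713, 127.2 kb from TOPAZ1, with 596 bp in the control, 752 and 521 bp in the IGF2BP1 and IGF2BP2 knockouts and no peak in the IGF2BP3 knockout list. Presence at a hairpin thus ranged from all 4 lists to a single one: MIR4435-1 and MIR4435-2, which share a mature sequence, had a peak in the IGF2BP2 knockout list alone, and MIR3141 in the IGF2BP3 knockout list alone.

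Distal regions were held by fewer lists than regions near genes. All 4 lists held 3865 of the 15948 distal regions, or 24.2% (95% interval 23.6 to 24.9%), where 41.5% of all regions and 46.7% of the regions near genes were held by all 4. Another 6225 distal regions, 39.0%, were in 1 list, against 24.6% of regions near genes. The control list held 5709 distal regions (35.8%), the IGF2BP1 knockout list 9378 (58.8%), the IGF2BP2 knockout list 12877 (80.7%) and the IGF2BP3 knockout list 8043 (50.4%). Near genes the same lists held 59.96, 75.1, 83.9 and 63.6% of the regions. The gap between distal and near regions was therefore widest in the control list and narrowest in the IGF2BP2 knockout list. All of these are shares of regions that at least 1 list held. The IGF2BP2 knockout list, the longest, was the only holder of 23.5% of distal regions and 12.6% of regions near genes. Its own high share and the lower shares of the other lists follow in part from this.

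**Figure D1:**
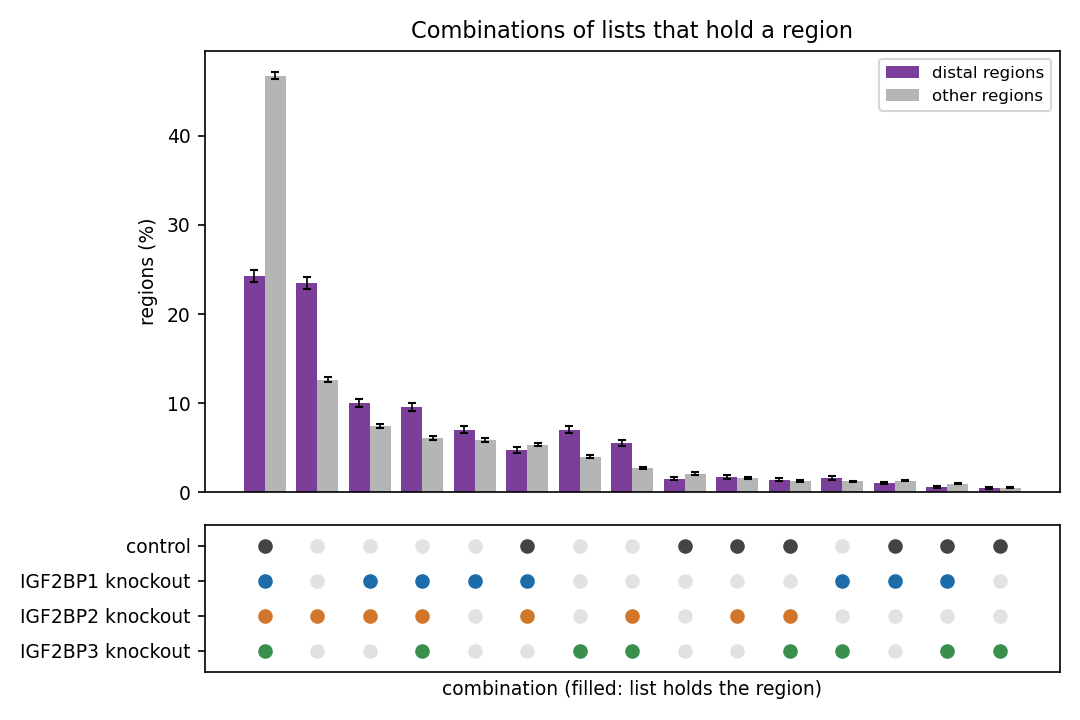
Share of regions (%, vertical axis) held by each combination of lists, for distal regions (purple) and regions within 50 kb of a coding gene (grey), with 95% Wilson intervals; filled dots under a pair of bars show which lists hold the region. The combination of all 4 lists takes 24.2% of distal and 46.7% of other regions, and the IGF2BP2 knockout list alone takes 23.5 and 12.6%.

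The distal regions that separated a knockout list from the control list were mostly gains, meaning a peak in the knockout list and none in the control list. There were 4487 gains in the IGF2BP1 knockout (28.1% of distal regions, 22.4% of all regions), 7748 in the IGF2BP2 knockout (48.6%, 33.5% of all) and 3786 in the IGF2BP3 knockout (23.7%, 16.3% of all). Losses, a peak in the control list and none in the knockout list, numbered 818 in the IGF2BP1 knockout (5.13% of distal regions, 5.45% of all), 580 in the IGF2BP2 knockout (3.64%, 4.66% of all) and 1452 in the IGF2BP3 knockout (9.11%, 10.1% of all). The distal share of gains lay above that over all regions in each knockout, and the share of losses lay somewhat below it. Only a region in the control list can be lost, and that list held 35.8% of distal regions and 54.3% of all regions. The control list is common to the 3 comparisons. Of the distal regions in a knockout list, 52.2% (IGF2BP1), 39.8% (IGF2BP2) and 52.9% (IGF2BP3) had a control peak, against 72.5, 65.5 and 77.9% of the regions near genes. Of the distal regions in the control list, 85.7, 89.8 and 74.6% had a peak in the knockout lists, against 90.75, 91.7 and 82.7% near genes. Counted over control regions, losses were thus more frequent among distal regions.

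All 3 knockout lists but not the control list held 1523 distal regions, 9.55% (9.10 to 10.0%), where 6.89% of all regions had this pattern. The control list alone held 245, 1.54% (1.36 to 1.74%), where 1.98% of all regions did. Among the 2606 distal regions held by exactly 3 lists, the control was the list without a peak in 58.4%, the IGF2BP3 knockout in 29.3%, the IGF2BP1 knockout in 8.63% and the IGF2BP2 knockout in 3.65%. Near genes the control was the absent list in 44.4%. The IGF2BP2 knockout list alone held 3744 distal regions, 23.5%, against 12.6% of regions near genes.

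List length bears on these counts, so each list was also shortened to its 37535 widest peaks, the length of the control list. The 11901 distal regions that remained were held in 48.0% by the control list and in 55.7, 61.1 and 57.8% by the knockout lists. Regions near genes had the opposite order, with 71.9% in the control list and 70.4, 68.3 and 69.2% in the knockout lists. Distal gains then numbered 2728, 3539 and 2986 against losses of 1811, 1978 and 1819, while near genes losses (6849, 7911 and 6928) exceeded gains (6189, 6322 and 5737). With lists of equal length, a list with more distal peaks has fewer near genes, so the values near genes are not a separate result. The cut left the control list whole and removed the narrowest knockout peaks, so list length and peak width changed together. It could hardly raise the count in all 3 knockout lists and not the control list. Nor could it well lower the count in the control list alone. The 2 counts became 764 and 880, so their order was not that of the full lists, and the direction of both changes was set by the cut. As shares these were 6.42% of distal regions against 3.995% of all regions in that setting, and 7.39% against 7.79%. All 4 lists held 23.5% of the distal regions and 41.4% of all regions.

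Presence in the lists declined with distance from coding genes. Inside coding genes the control list held 62.6% of the regions, at 50 to 100 kb 43.2%, at 200 to 500 kb 32.1% and over 1000 kb from any coding gene 28.0% (25.6 to 30.6%). The IGF2BP1 knockout list went from 76.8% inside genes to 67.6, 57.2 and 40.9% in the same bins, and the IGF2BP3 knockout list from 65.5% to 54.6, 49.4 and 44.1%. The IGF2BP2 knockout list had no such decline. It held 84.5% inside genes, 78.5% at 50 to 100 kb, 80.6% at 200 to 500 kb and 84.8% over 1000 kb. Shares here too are over regions in at least 1 list, to which the IGF2BP2 knockout list added the most of its own. All 4 lists held 49.98% of the regions inside genes, 30.8% at 50 to 100 kb and 14.6% over 1000 kb. With the widest 37535 peaks per list the control share went from 74.1% inside genes to 55.3% at 50 to 100 kb, 38.5% at 500 to 1000 kb and 42.2% over 1000 kb, and the share in all 4 lists from 51.0% to 13.3%. The IGF2BP2 knockout list then held 71.1% inside genes, 59.2% at 50 to 100 kb and 60.3% over 1000 kb. In that setting the control list held the smallest share in each bin from 25 to 1000 kb. Over 1000 kb the IGF2BP1 knockout list held the smallest (37.8%). In the full lists 310 of the regions over 1000 kb lay on chromosome 13 and 253 on chromosome 1, more than on any other.

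**Figure D2:**
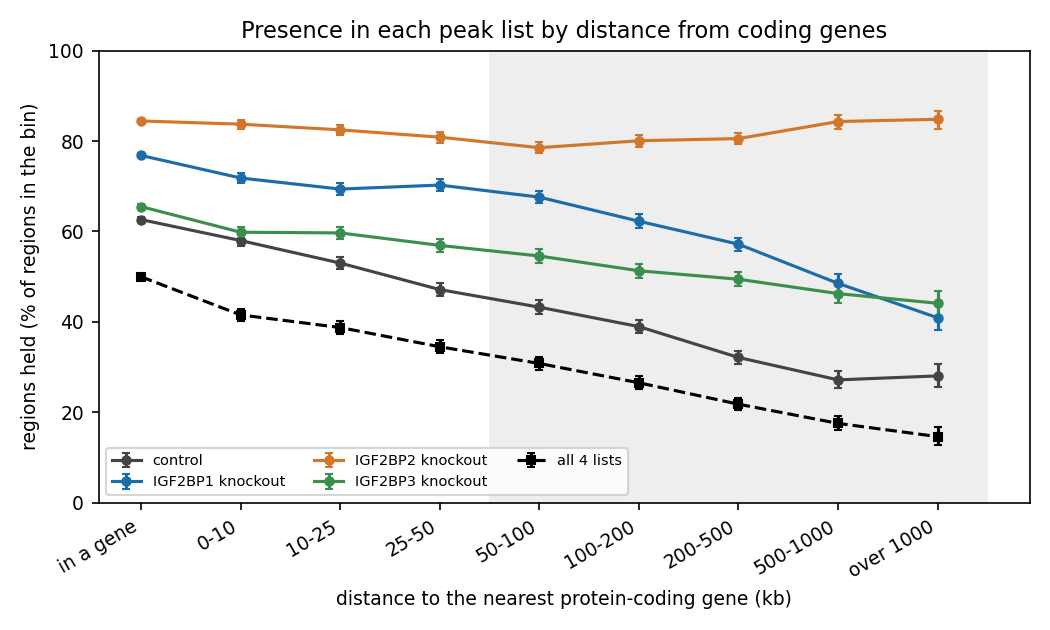
Share of regions held by each list (%, vertical axis) in bins of distance to the nearest protein-coding gene (kb, horizontal axis), with 95% Wilson intervals; the shaded bins are the distal regions. The control line goes from 62.6% inside genes to 28.0% over 1000 kb, while the IGF2BP2 knockout line stays between 78.5 and 84.8%.

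The 50 kb limit does not sit at a step in the data. The 677 regions at 45 to 50 kb were in all 4 lists in 33.8%, and the 623 at 50 to 55 kb in 31.1%. The nearest members inside the limit lay 50.023 kb from FOXF2, 50.032 kb from CTNNB1 and 50.035 kb from TNIP3, and the nearest regions left out lay 49.963 kb from LRP1B, 49.967 kb from RAPH1 and 49.973 kb from CD83. The median distal region was 190.5 kb from its nearest coding gene (quartiles 94.5 and 432.5 kb), and 1220 regions, 7.65%, lay over 1000 kb away. Regions in all 4 lists were nearer (median 142.6 kb) and those of the IGF2BP2 knockout list alone farther (255.5 kb), with the regions of all 3 knockouts without the control between them (200 kb).

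Distal peaks were narrower than peaks near genes in every list. Their median width was 658 bp (650 to 666) for the control, 746 bp (739 to 753) for IGF2BP1, 578 bp (573 to 584) for IGF2BP2 and 611 bp (604 to 619) for IGF2BP3. Peaks near genes had medians of 803, 862, 676 and 750 bp. Distal peaks made up 15.3, 19.2, 22.5 and 19.3% of the 4 lists, so the knockout lists had 1.64, 2.26 and 1.41 times as many distal peaks as the control list, where for peaks near genes it was 1.24, 1.41 and 1.06 times. Peaks of 1500 bp or wider made up 2.49, 3.76, 1.27 and 1.60% of distal peaks and 8.27, 10.7, 5.40 and 7.58% of the others. Regions in more lists had wider peaks: control peaks had a median of 437 bp where the control list was alone and 733 bp where all 4 lists held the region.

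In the narrowest quartile of the control list, peaks of 215 to 558 bp, 21.9% were distal, and in the widest, 1080 to 3437 bp, 6.44% were. In the IGF2BP2 knockout the distal share went from 28.4 to 11.98%, in the IGF2BP1 knockout from 24.3 to 10.3% and in the IGF2BP3 knockout from 26.1 to 8.15%. Distal knockout peaks overlapped the control list less often than other peaks of the same width quartile. A quartile can span a wide range, 918 to 3466 bp in the widest of the IGF2BP2 knockout. The part of width differences inside a quartile was not tested. Within the widest quartile of the IGF2BP2 knockout list 67.3% of distal peaks lay in a region of the control list, against 93.1% of the others. The values in the widest quartile were 71.7 and 92.8% for the IGF2BP1 knockout and 78.0 and 96.9% for the IGF2BP3 knockout. In each of the 12 quartiles of the 3 knockout lists the distal value was below the other.

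**Figure D3:**
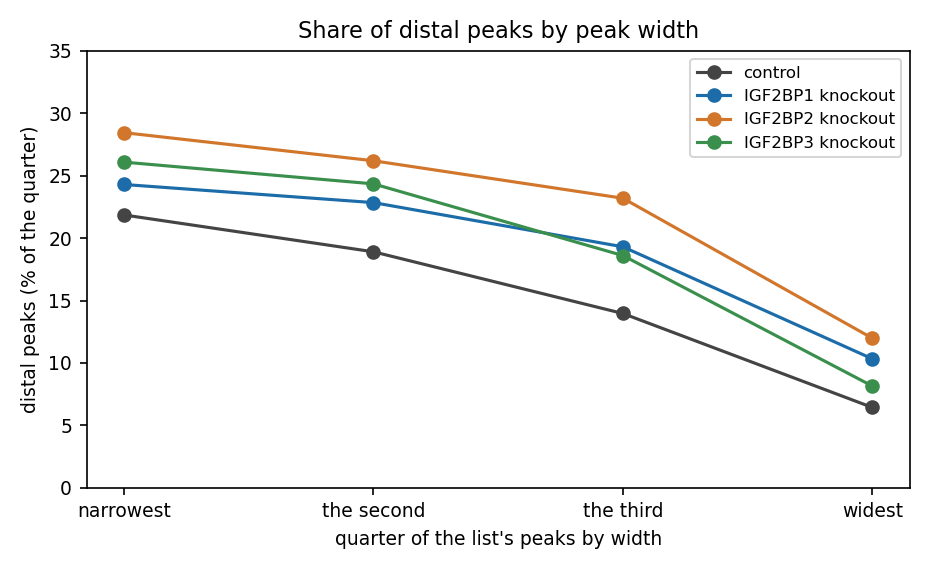
Share of peaks that are distal (%, vertical axis) in each quartile of a list's peaks by width (horizontal axis, narrowest to widest), 1 line per list. The control line is lowest in all 4 quartiles (21.9 to 6.44%) and the IGF2BP2 knockout line is highest (28.4 to 11.98%).

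Where all 4 lists had 1 peak in a region, widths in knockout and control could be compared region by region. In 3789 such distal regions the median ratio to the control width was 1.13 in the IGF2BP1 knockout (1.12 to 1.15), 1.01 in the IGF2BP2 knockout (1.00 to 1.02) and 0.981 in the IGF2BP3 knockout (0.973 to 0.988). The IGF2BP1 knockout peak was the wider in 76.4% of these regions, the IGF2BP2 knockout peak in 52.3% and the IGF2BP3 knockout peak in 45.1%. In 23649 regions near genes the ratios were 1.09, 0.996 and 0.977. These ratios describe only regions that all 4 lists hold.

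The broadest distal regions of all 4 lists lay beside centromeres and on the short arm of chromosome 21. They were chr21:6369031-6372522 (peaks of 3415 to 3466 bp), chr16:46398376-46401590 (3013 to 3215 bp), chr21:7096847-7099683 (2721 to 2837 bp), chr5:49657666-49660358 (2678 to 2691 bp) and chr21:6216500-6219351 (2677 to 2852 bp). All 5 lay within 5 Mb of a stretch of over 1 Mb with no annotated gene. Such parts of the genome are rich in repeats, where reads from copies of a sequence can pile up in 1 place. Mappability was not tested. In all, 2099 distal regions, 13.2%, lay within 5 Mb of such a stretch, and the control list held 45.1% of them against 34.4% of the distal regions elsewhere.

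Away from those stretches, a ranking added after the values were seen gave, besides DLEU2 and LOC124901296, a region near TLE4, one near ARID1B and one near RNF187. TLE4 encodes a co-repressor of transcription, and the region chr9:79446439-79448638, 123.3 kb away, had peaks of 2009, 2175, 2042 and 2014 bp. ARID1B encodes a subunit of the SWI/SNF chromatin remodeller, and chr6:156686271-156688320, 87.7 kb away, had peaks of 2008, 2035, 2020 and 1998 bp. The region chr1:228556412-228558343, 60.2 kb from RNF187, had peaks of 1924, 1932, 1924 and 1919 bp. In each of these 3 regions the IGF2BP1 knockout peak was the widest.

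Of the distal regions in all 3 knockout lists and over 1 kb from any control peak, 1501 in number, the 5 with the broadest peaks were on 5 chromosomes. The region chr3:72177044-72178978 lay 195.6 kb from RYBP, which encodes a Polycomb-associated protein, with peaks of 1935, 1674 and 1695 bp in the knockout lists. The region chr5:82386579-82388441, 108.2 kb from the ribosomal protein gene RPS23, had peaks of 1863, 1361 and 1434 bp. The region chr21:16837392-16838950, 674.1 kb from CXADR, which encodes a cell adhesion protein used as a receptor by viruses, had peaks of 1414, 1358 and 1291 bp. The remaining regions of this set lay 74.9 kb from CTAGE1 (chr18:22492762-22494245, with 1417, 1274 and 1313 bp) and 1075 kb from GPC5 (chr13:90322299-90323956, with 1237, 1657 and 1438 bp). Their lack of a control peak and their broad knockout peaks, all above the control list's distal median of 658 bp, follow from how they were chosen. Of these 5, 2 lay within 5 Mb of a gene-free stretch.

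The control list alone held 227 distal regions over 1 kb from any knockout peak. The widest peak among them was 1094 bp, at chr13:60795018-60796111, 221.1 kb from TDRD3. Peaks of 967 bp (chr11:38336527-38337493, nearest to IFTAP, within the lncRNA LOC105376634), 963 bp (chr10:40085997-40086959, nearest to ZNF37A), 921 bp (chr5:91311366-91312286, in the lncRNA LUCAT1 and 56.3 kb from ARRDC3) and 850 bp (chr5:159403968-159404817, 73.5 kb from the cytokine gene IL12B) followed.

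Regions of a single knockout list could also be broad. In the IGF2BP1 knockout list alone the widest clear regions were chr12:93015305-93017131 (1827 bp, 86.0 kb from EEA1) and chr4:118465437-118467079 (1643 bp, 112.4 kb from PRSS12). In the IGF2BP2 knockout list alone they were chr1:193786154-193787807 (1654 bp, in LOC124904475) and chr4:64078548-64080164 (1617 bp, 196.1 kb from TECRL). In the IGF2BP3 knockout list alone they were chr10:43707493-43709132 (1640 bp, 58.6 kb from ZNF32) and chr2:217365900-217367188 (1289 bp, in the lncRNA DIRC3).

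The regions farthest from any coding gene were on the short-arm side of chromosome 22, where OR11H1, an olfactory receptor gene, was the nearest. The farthest, chr22:10687106-10687988, was 4840 kb away and had peaks of 680, 558, 756 and 497 bp. The next 4, at 4664 to 4799 kb, were each in 1 list, 1 in the control, 2 in the IGF2BP2 knockout and 1 in the IGF2BP3 knockout. All 5 lay within 5 Mb of a gene-free stretch. Away from such stretches, again a ranking added after the values were seen, the farthest were chr4:33422588-33423665, 2276 kb from PCDH7, and chr4:33924137-33925055, 2080 kb from ARAP2, followed by 3 regions of chromosome 18 at 2050 to 2066 kb from LOC105372073. One of those, chr18:39841188-39842187, covers the start of the lncRNA LINC01902 and had peaks of 815, 1000, 966 and 986 bp.

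Distal territory, the sequence over 50 kb from any coding gene, came to 1098 Mb, or 38.2% of the span of the 22 chromosomes in the table. It held 14.5 regions per Mb, and the rest of the span 29.6 per Mb. Of 2711 separate stretches of this territory, 597, or 22.02%, held no region. The longest empty pieces were chr1:125183083-143184646 (18.0 Mb), chr9:43279670-60526054 (17.3 Mb) and chr14:119632-16093046 (16.0 Mb). The first 2 hold no annotated gene of any type and the last holds 17, none of them coding. Whether reads could be placed in these pieces at all was not tested.

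Chromosomes 13, 6 and 1 had the most distal regions per Mb of distal territory, with 26.6, 22.3 and 20.8. Chromosomes 19, 16 and 22 had the fewest, with 3.58, 5.71 and 7.53. Without the gene-free stretches over 1 Mb the values were 36.5, 23.5 and 28.6 for chromosomes 13, 6 and 1, and chromosome 22 stood at 17.6 and no longer among the lowest. Chromosome 13 held 1730 distal regions, 10.9% of all of them, and 55.04% of its own regions were distal.

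**Figure D4:**
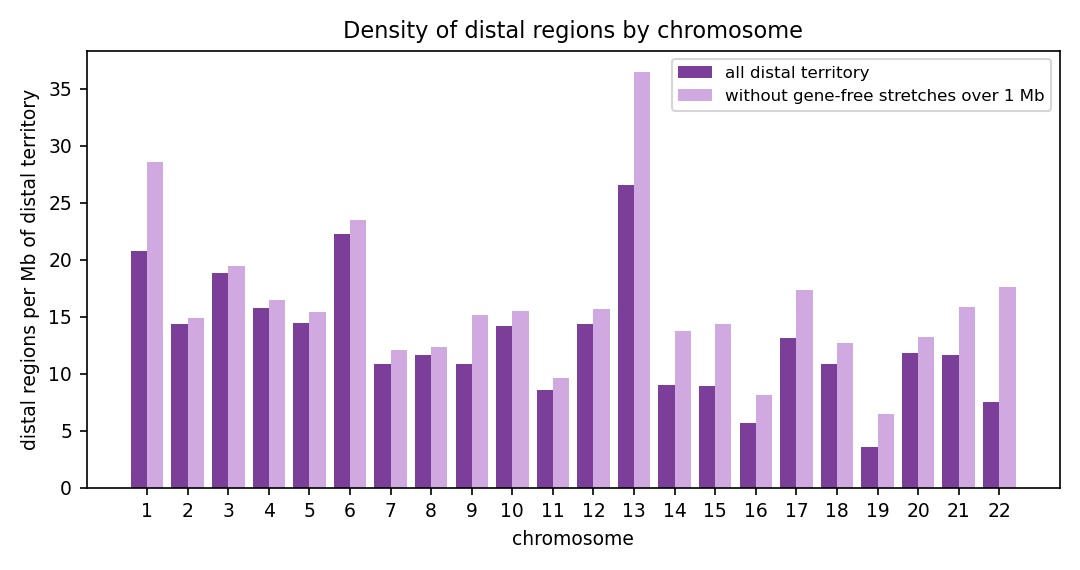
Distal regions per Mb of distal territory (vertical axis) on each chromosome (horizontal axis), with all of the territory (dark) and without gene-free stretches of over 1 Mb (light). Chromosome 13 has the tallest bars, 26.6 and 36.5, and chromosome 19 the lowest, 3.58 and 6.47.

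The share of distal regions in each list varied by chromosome. The control list held 19.5% of those of chromosome 13 and 20.4% of those of chromosome 18, but 54.5% on chromosome 22 and 51.5% on chromosome 17. The IGF2BP2 knockout list held 50.3% on chromosome 11, where its share elsewhere was 70.2 to 87.0%. The IGF2BP3 knockout list held 34.8% on chromosome 2, 38.8% on chromosome 16 and 28.6% of the 28 distal regions of chromosome 19. The IGF2BP1 knockout list held 75.7% on chromosome 7, and 47.5% and 49.4% on chromosomes 13 and 17. Regions near genes were also low on some of these chromosomes: the control list held 47.6 and 49.0% of them on chromosomes 13 and 18, the IGF2BP2 knockout list 72.5% on chromosome 11 (and 72.1% on chromosome 21, its lowest near genes) and the IGF2BP3 knockout list 49.0% on chromosome 2.

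**Figure D5:**
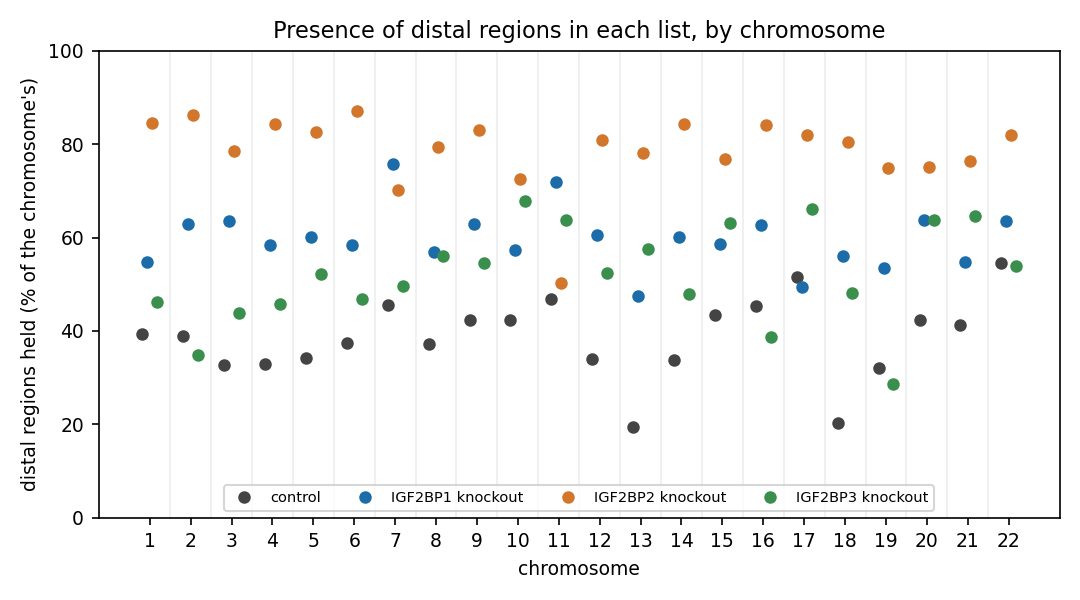
Share of each chromosome's distal regions (%, vertical axis) held by the 4 lists, by chromosome (horizontal axis). The control points are lowest on chromosomes 13 (19.5%) and 18 (20.4%), and the IGF2BP2 knockout point is lowest on chromosome 11 (50.3%).

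The dense part of chromosome 13 ran from 60 to 95 Mb, limits chosen after the values were seen. It held 1393 distal regions, 8.74% of the total. The control list held 206 of them (14.8%), the IGF2BP1 knockout list 623 (44.7%), the IGF2BP2 knockout list 1073 (77.0%) and the IGF2BP3 knockout list 854 (61.3%). That is 3.02, 5.21 and 4.15 times the control count, where the ratios were 1.59, 2.15 and 1.31 over the distal regions outside this stretch. The 337 distal regions on the rest of chromosome 13 were held in 39.2% by the control list and in 41.8% by the IGF2BP3 knockout list. All 3 knockouts without the control held 17.4% of the stretch's regions and 8.80% of those outside it. With the stretch and the regions near gene-free sequence left out, presence in the control list and in all 4 lists still declined with distance. The control list held 62.8% inside genes and 23.7% over 1000 kb, and all 4 lists 49.9 and 15.3%. The knockout lists held 76.9, 84.3 and 65.4% inside genes and 46.75, 89.0 and 38.6% over 1000 kb. There the IGF2BP1 knockout list held more than the IGF2BP3 knockout list, where over all such regions it held less (40.9 and 44.1%).

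In windows of 5 Mb, 556 windows held at least 1 distal region, with a median of 22, and 123 of them held 50% of the regions. The richest was 60 to 65 Mb of chromosome 13, with 314 regions, of which 49 were in the control list and 131, 243 and 188 in the knockout lists. The window from 65 to 70 Mb followed with 254. Outside chromosome 13 the richest was 120 to 125 Mb of chromosome 1, just before the 18.0 Mb empty piece of that chromosome, with 202 regions. The control list held 100 of them and the knockout lists 67, 170 and 83. There the control list held more regions than the IGF2BP1 and IGF2BP3 knockout lists, which was not so in either of these chromosome 13 windows.

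Chaining distal regions at most 20 kb apart placed 9223, or 57.8%, in 3226 clusters, against 72.4% of the regions near genes chained in the same way. Such a share follows density, which was 14.5 regions per Mb in distal territory and 29.6 per Mb elsewhere. The largest distal cluster had 68 regions and the largest near genes 35. The median gap between neighbouring distal regions was 32.3 kb (31.4 to 33.2 kb). There were 39 clusters of 10 regions or more, with 612 regions, and 19 of them, with 346 regions, were on chromosome 13. Presence in all lists differed little with cluster size: all 4 lists held 23.4% of lone regions and 24.7% of those in clusters of 10 or more. The IGF2BP3 knockout list held 47.9% of lone regions and 62.6% of those in clusters of 10 or more, and the IGF2BP1 knockout list 58.2 and 48.2%. In the 60 to 95 Mb stretch of chromosome 13 these 2 lists held 61.3 and 44.7% of all distal regions. Cluster size and place on chromosome 13 were not separated.

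The largest cluster, chr13:61727957-62258835, had 68 regions in 530.9 kb. The control list held 12 of them, the IGF2BP1 knockout list 30, the IGF2BP2 knockout list 58 and the IGF2BP3 knockout list 45. Its regions began 312.1 kb from PCDH20, a protocadherin gene of the cadherin family of cell adhesion proteins, and it covers the lncRNAs LINC00358 and LINC01075. The cluster chr13:63336485-63566165 had 30 regions (5 in the control list and 11, 24 and 18 in the knockout lists) around the lncRNA LOC124903236, chr13:62283548-62562570 had 27 (5, 9, 17 and 22) and chr13:63976112-64197509 had 23 (2, 3, 19 and 10). In the 4 clusters on chromosome 13 the control list held the fewest regions, and in 3 of them the IGF2BP2 knockout list held the most. The other cluster of the leading 5 was chr1:143184647-143267527, directly after the 18.0 Mb empty piece of chromosome 1. It had 28 regions in 82.9 kb, 22 of them in the control list and 18, 25 and 24 in the knockout lists.

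A cluster of transfer RNA genes was mostly in all lists. It was singled out after its values were seen. At chr6:28709555-28849309, 53.7 to 141.2 kb from TRIM27, 21 distal regions lay in 139.8 kb, and 16 of them were in all 4 lists. Across the genome 59 distal regions overlapped a transfer RNA gene, 45 of them (76.3%, 64.0 to 85.3%) in all 4 lists. Of 117 distal transfer RNA genes 66 had a region. Distal regions over transcribed pseudogenes, 302 in number, were in all 4 lists in 52.7%, and the 374 regions over an lncRNA start in 56.4%. Each of these 3 shares was above the 24.2% of distal regions as a whole. Regions over 50 kb from any annotated gene, coding or not, numbered 3899, and 18.4% of them were in all 4 lists.

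LncRNA bodies overlapped 4578 distal regions, or 28.7% (28.0 to 29.4%). By midpoint it was 27.5%, where lncRNA bodies cover 242.6 Mb, or 22.1%, of the 1098 Mb of distal territory. Gene-free stretches over 1 Mb, which cannot hold an lncRNA, are part of that territory, and 925.9 Mb remain without them. The covered share of the remainder is higher than 22.1%, and an excess of regions in lncRNA bodies was not tested. These regions were in all 4 lists in 26.6%, against 23.3% of the distal regions outside lncRNA bodies. In all 2370 lncRNAs overlapped a distal region, 1400 of them 1 region each and 42 of them 10 or more.

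The lncRNAs with most distal regions were long genes. LINC00333 (chromosome 13, 466.2 kb) had 25 regions, of which 1 was in the control list and 13, 19 and 10 were in the knockout lists. LINC03000 (chromosome 5, 765 kb) had 23, with 7 in the control list and 10, 21 and 8 in the knockout lists. MIR99AHG (chromosome 21), the host gene of a microRNA cluster, had 22, with 7 in the control list and 15, 16 and 15 in the knockout lists. These 3 genes differ in how the control list compares: it held 1 region in 25 at LINC00333 and 7 of 22 at MIR99AHG.

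OBI1-AS1 on chromosome 13 had 20 regions (4 in the control list and 13, 13 and 17 in the knockout lists), of which 8 were in all 3 knockout lists without the control. DLEU1, whose overlap partner DLEU2 is printed above, had 19 (10, then 13, 16 and 13), 9 of them in all 4 lists. MIR924HG on chromosome 18 had 19 (1, then 8, 15 and 5). LINC01122, LOC101927421 and LOC124901056 had 19 each and LOC124904475 had 18, with 5 to 8 in the control list. The control count was at or below each knockout count at all 10 of these lncRNAs, and per 100 kb of gene they held 2.13 to 5.74 distal regions.

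By nearest coding gene, 3046 genes were named, 880 of them by 1 region and 114 by 20 or more. The 10 genes with most regions took 1199, or 7.52%, and 9 of the 10 were on chromosome 13. PCDH9, a protocadherin gene expressed in neurons, was nearest to 182 regions, with 33 in the control list and 79, 142 and 130 in the knockout lists. SLITRK1, which encodes a neuronal membrane protein that shapes neurites and synapses, was nearest to 129 (6 in the control list and 46, 102 and 63 in the knockout lists), and its relative SLITRK6 to 85 (15, then 37, 70 and 55). PCDH20 was nearest to 108 (20, then 49, 87 and 73) and GPC5, which encodes a heparan sulphate proteoglycan of the cell surface, to 105 (19, then 52, 79 and 66). At each of these genes the knockout lists held more regions than the control list, with the IGF2BP1 knockout the fewest of the 3.

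KLHL1, which encodes a brain protein of the kelch-like family, was nearest to 104 regions (10 in the control list and 42, 84 and 60 in the knockout lists). SPRY2, an inhibitor of receptor tyrosine kinase signalling, was nearest to 98 (14, then 51, 73 and 69). The others on chromosome 13 were LOC112267897 with 103 and LOC647264 with 96. The gene with most, LINC02798 on chromosome 1, was nearest to 189 regions at a median of 2290 kb across the centromere, 88 of them in the control list and 54, 157 and 76 in the knockout lists. It is entered as coding in the table despite its name, and 1244 distal regions, 7.80%, had a nearest gene with a LOC or LINC symbol. A nearest gene is a position and not a measured target.

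Of 3 gene lists read against the nearest coding genes, developmental transcription factors (165 of 167 symbols matched) were nearest to 885 regions at 117 genes, 5.55% of distal regions, and took 4.68% of the distal territory. Their territory held 17.2 regions per Mb, against 14.5 per Mb in all distal territory and 17.2 per Mb without its gene-free stretches over 1 Mb. All 4 lists held 24.4% of these regions (21.7 to 27.3%), against 25.3% of the regions whose nearest gene was in none of the lists. DACH1, a regulator of eye, limb and kidney development, led with 61 (8 in the control list and 22, 40 and 32 in the knockout lists), followed by NR2F2, a nuclear receptor gene of vessel and organ development, with 53 (24, then 32, 40 and 31). NR2F1 had 31 (15, then 24, 25 and 20) and SOX9, a gene of cartilage and testis development, 26 (12, then 16, 17 and 19). At NR2F2, NR2F1 and SOX9 the control list held a larger part of the regions than at DACH1. DACH1 lies in the 60 to 95 Mb stretch of chromosome 13, where the control list held 14.8% of all distal regions, and the other 3 genes lie on other chromosomes.

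Neural adhesion and guidance genes (92 of 97 symbols matched) were nearest to 1496 regions at 81 genes, 9.38%, and took 8.72% of the territory. Their territory held 15.6 regions per Mb, between the 14.5 and 17.2 per Mb of all distal territory with and without gene-free stretches. Only 14.4% of these regions (12.8 to 16.3%) were in all 4 lists, and 16.1% of the 775 regions left without chromosome 13. The control list held 20.7% and the knockout lists 48.5, 80.9 and 50.4%. These 4 shares include the regions on chromosome 13, where the control list held 19.5% of all distal regions. Outside chromosome 13 the genes with most were EPHA3, an ephrin receptor gene, with 39 (12 in the control list and 19, 33 and 14 in the knockout lists), and TENM3, a teneurin gene, with 37 (11, then 25, 29 and 12). ADGRL2 and PCDH10 had 35 each (10, then 23, 32 and 15, and 7, then 15, 32 and 12). Genes of this list tend to be long and to lie beside wide gene-poor stretches, and presence declines with distance as shown above. The part of distance in this share was not tested.

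Kidney development genes, all 24 matched, were nearest to 118 regions at 17 genes. All 4 lists held 30.5% of them (22.9 to 39.3%), an interval that takes in the 25.3% of the unlisted genes. GATA3, which acts in the development of the kidney duct, had 24 (10 in the control list and 19, 16 and 14 in the knockout lists), TFAP2A 19 (8, then 13, 17 and 12) and BMP7, a growth factor gene of the nephron progenitors, 16 (6, then 10, 13 and 8). The list is short and overlaps that of the developmental transcription factors.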

How the data were processed

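ATAC-seq was made from HEK293T cells, and the authors deposited 1 peak list per group whose columns give positions only (chromosome, start, end). Per the submitters' processing notes, fastp 0.24.1, BWA 0.7.17, MACS2 3.0.0 and bedtools were named, with the build GRCh38; the peak threshold and the pooling of the 9 libraries are not given in the sources used here, and both affect how many weak peaks a list holds. As a check of the build, 19.3 to 28.4% of a list's peaks lay at a RefSeq gene start, against 1.47 to 1.76% after a move by 100 kb. Starts were printed counting from 1.

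Peaks off chromosomes 1 to 22 (1659 to 2593 per list) were left out. Merging, distances, clusters and presence were computed with Python 3.11.15, numpy 2.4.6, pandas 2.3.3 and scipy 1.17.1 and tested on simulated data. The RefSeq table has no strand, exons or transcripts, so exonic or intronic position was not determined, and sequences under distal regions without an annotated start are not printed. The regions named are those whose narrowest peak was widest, named genes by the number of distal regions, and named chromosomes by distal regions per Mb. The members and gene lists were chosen with earlier results of these data known. Alternatives covered the distance, the overlap, list length, merging, clustering, chromosome 13 and the annotation.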

Additional observations from a re-analysis of the deposited data

How the results depend on the processing

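No paired analysis was possible because each group has 1 list, and leaving out a library could not be run for the same reason. Of 124 values recomputed under 11 alternatives, 61 stayed within their counting interval (for a number of regions, within 1.5 times the reported one) and 63 moved further; the cause was not tested beyond what each alternative changes by construction. Shares below are in the order control, IGF2BP1, IGF2BP2 and IGF2BP3 knockout. In each setting where all 4 were recomputed, the control list had the smallest share of distal peaks and held the smallest share of distal regions.

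At a distance of over 25 kb the distal share of peaks was 20.8, 25.5, 28.6 and 25.2%, the control, IGF2BP1 and IGF2BP3 lists held 38.2, 61.3 and 51.8%, all 4 lists 26.4%, and 58.8% of regions were in clusters. At over 100 kb these were 10.3, 13.2, 16.5 and 13.6%, the lists held 33.0, 55.5, 81.6 and 48.9%, all 4 lists 21.8%, 57.0% were in clusters, 162 regions were in the control list alone, and the control median width was 647 bp. With the widest 37535 peaks per list, the distal share was 17.7, 19.4 and 18.4% in the knockouts, the lists held 48.0, 55.7, 61.1 and 57.8%, all 4 lists 23.5%, the knockout median widths were 864, 733 and 660 bp, 49.3% were in clusters, 764 regions were in all 3 knockout lists without the control and 880 in the control list alone. Where a list had to cover 50% of a region, the control, IGF2BP2 and IGF2BP3 lists held 33.4, 77.4 and 46.5% and all 4 lists 20.7%. Merging peaks up to 500 bp apart left 57.0% in clusters, and cluster gaps of 10 and 50 kb gave 38.0 and 81.3%.

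Without chromosome 13 the distal share was 14.8, 18.2, 21.0 and 17.7%, the control, IGF2BP1 and IGF2BP3 lists held 37.8, 60.2 and 49.6%, all 4 lists 25.4%, and 54.9% were in clusters. Within 10 kb of an lncRNA body lay 38.9% of regions. The next 2 alternatives were added after the data were seen. Without regions within 5 Mb of a gene-free stretch of over 1 Mb, the distal share was 13.8, 18.1, 21.0 and 18.1%, the control list held 34.4%, 57.0% were in clusters and 30.4% overlapped an lncRNA. With LOC and LINC genes not counted as coding it was 15.8, 19.7, 22.97 and 19.8%. The unknown depth of each list limits all counts of presence.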
